A study of Homo sapiens with 6 samples.

Results

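Asparagine-linked glycosylation depends on 36 genes that were followed here in MDA-MB-231, a long-established line of human breast cancer cells that lack hormone receptors. The genes were taken by symbol: they encode the enzymes and subunits that build the dolichol-linked glycan, transfer it to proteins and trim it afterwards. All 36 had a row among the 31582 genes of the deposited count table, and all 36 passed the filter on low counts that left 16394 genes. Of the 6 libraries, 3 came from MDA-MB-231 cells carrying a short hairpin RNA against CALR (CALR knockdown), and 3 from the same line with a non-targeting control (control). Per the labels, both were grown in DMEM with 10% serum and harvested near 70% confluency, and polyadenylated RNA was sequenced from strand-specific libraries. The labels do not say how many hairpin sequences or clones were used, or whether the 3 libraries of a group are separate cultures, so p-values measure only the spread between these libraries.

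N-glycans are assembled on the lipid dolichol phosphate, first on the cytosolic face and then on the lumenal face of the endoplasmic reticulum (ER). Oligosaccharyltransferase (OST) moves the finished glycan as a block to asparagine residues of nascent proteins. ER glucosidases then leave the monoglucosylated form that the lectin chaperones calreticulin, the product of CALR, and calnexin bind, and mannosidases and Golgi enzymes rework the glycan of proteins that have folded.

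Library totals lay between 37295097 and 42425310 counts in knockdown and between 34639090 and 40732131 in control libraries. CALR itself was at 493, 66.4 and 110.1 CPM in CALR knockdown replicates 1 to 3, against 1213, 979 and 926 CPM in the controls, which left 47.5, 6.39 and 10.6% of the control mean (log2 fold change −2.22 ± 0.64, SE, edgeR adjusted p = 0.209). The knockdown was therefore weakest in replicate 1. The 8 listed markers of this mesenchymal line summed to between 5145 and 6098 CPM of the whole library in knockdown and between 4014 and 4452 in control libraries. For 7 fibroblast and endothelial markers the sum was 2.71 to 4.88 in knockdown and 2.77 to 6.16 in control libraries, and for 5 blood markers 0.209 to 0.429 in knockdown and 0.297 to 0.491 in control libraries, with CD3E at 0 in 5 libraries. The 8 luminal markers, some of which this line expresses, summed to 100.1 to 143 in knockdown and 112 to 118 in control libraries. The knockdown libraries differed from one another in base composition. Among all tested genes, those with a transcript GC content of at most 41.97% had median log2 differences from the control mean of −0.40, 0.11 and −0.52 in knockdown replicates 1 to 3, and those with at least 55.98% had 0.18, −0.12 and 0.37.

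The median of the N-glycan genes stood slightly above the controls, and no single member passed the adjusted threshold of edgeR. The members were chosen with earlier results of these data known, so a shift of the set was not tested. The SD of the members' median over the 3 knockdown libraries was 0.16 in log2 CPM. In edgeR's quasi-likelihood test 0 of 36 members and 0 of 16394 genes, 0% of those tested, had a Benjamini-Hochberg adjusted p under 0.05. DESeq2 gave 3 of 36 members among 530 genes (3.23% of all genes), and limma-voom gave 0 of both. At an unadjusted p under 0.05, edgeR gave 6 members (16.7%), close to the 2546 of all genes (15.5%). These were ALG14, ALG12, ALG1, ALG9 and RPN2, higher in knockdown (8.17% of all genes were), and DPAGT1, lower in knockdown (7.36% of all genes were). The knockdown and control libraries did not overlap for 8 members (22.2%), those 6 with ALG8 and STT3A, against 22.5% of all genes. Both shares are near the background, so they are no result about the set. The log2 fold change was positive for 26 of 36 members and for 49.9% of all genes, and its median was 0.22 over the members and −0.00072 over all genes. With library size alone the medians were 0.09 and −0.13, and on the log2(FPKM + 1) scale 0.08 and −0.08, with 23 positive members in either case.

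The median difference of the 36 members from the control mean, in log2 CPM, was 0.13, 0.10 and 0.39 in knockdown replicates 1 to 3, against 0.03, 0.01 and −0.03 in the controls. Replicate 3 thus stood furthest from the controls and held the highest knockdown value for 21 members, whereas replicate 2 held the lowest for 17. The knockdown libraries also scattered more than the controls. The SD of log2 CPM was larger in knockdown for 35 of 36 members. Its median over members was 0.36 in knockdown and 0.099 in control libraries. Wider spread was not particular to these members: over all tested genes, chi-square per gene was 105 to 199 in knockdown pairs and 11.8 to 48.1 in control pairs. Leaving out replicate 2 raised the members at an unadjusted p under 0.05 to 17 (47.2%, against 35.6% of all genes in that fit) and those past the adjusted threshold of edgeR to 7, among 2604 genes (15.5% of all). Leaving out control replicate 2 or control replicate 3 lowered the count at an unadjusted p under 0.05 to 3 (8.33%, against 8.48 and 7.23% of all genes), so these counts moved with those of all genes. Without knockdown replicate 3 the log2 fold change of 21 of 36 members moved by over 1.5 times or changed sign, and of these 15 became smaller or changed sign. No share over all genes is given here for this count, for the order of the knockdown replicates or for the SD.

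**Figure D1:**
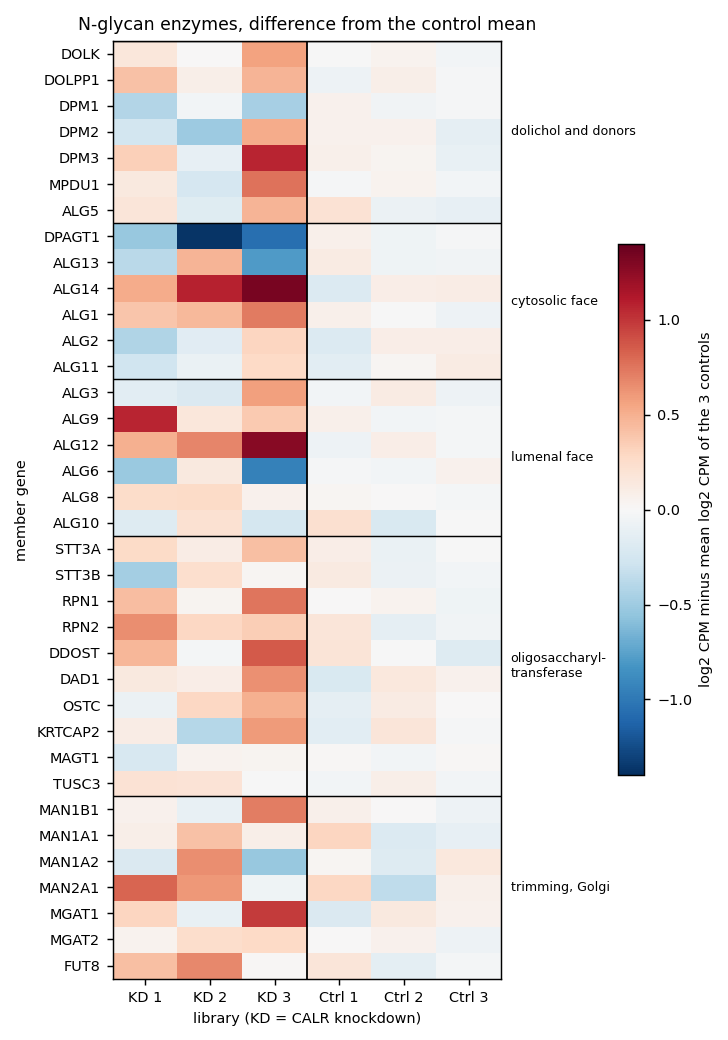
Difference of each member (rows, grouped by role) in each library (columns, CALR knockdown left of control) from the mean of the 3 controls, in log2 CPM; red is higher and blue lower. DPAGT1 is the lowest member in every knockdown library, ALG14 and ALG12 are above the controls in all 3, and many other rows change colour between knockdown replicates.

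Of the genes of the first cytosolic steps, DPAGT1 and ALG14 stood on opposite sides of the controls. DPAGT1, the GlcNAc-phosphotransferase that starts the glycan on dolichol phosphate and the target of tunicamycin, was the member furthest below the controls. It lies on chromosome 11 at 119096503 to 119108331 (minus strand, ENSG00000172269.16) of GRCh38. DPAGT1 was at 36.9, 20.5 and 25.7 CPM in CALR knockdown replicates 1 to 3, against 56.2, 51.2 and 52.6 CPM in the controls, from 1292, 826 and 958 counts in the knockdown libraries, against 2124, 1865 and 2294 in the controls. All 3 knockdown libraries were below all 3 controls, at 69.2, 38.5 and 48.2% of the control mean, and the highest of them was replicate 1. In edgeR its log2 fold change was −0.94 ± 0.23 (SE, n = 3 each; unadjusted p = 0.00255, adjusted p = 0.174). C2CD2L, a gene on the opposite strand that covers 21.3% of the exon bases of DPAGT1, was at 50.99, 39.3 and 59.2 CPM in the knockdown libraries, against 50.6, 56.4 and 49.8 CPM in the controls, and its groups overlapped (log2 fold change −0.07 ± 0.19).

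ALG14 anchors the transferase of the next step, which adds the second GlcNAc, to the membrane, and ALG13 is its catalytic partner. ALG14, on chromosome 1 at 94974407 to 95072945 (minus strand, ENSG00000172339.9), was at 26.4, 38.9 and 46.3 CPM in CALR knockdown replicates 1 to 3, against 16.1, 19.6 and 19.8 CPM in the controls. Every knockdown library was above every control, with replicate 3 highest. Its log2 fold change of 1.01 ± 0.23 was the largest positive one among the members (unadjusted p = 0.00213, adjusted p = 0.169, edgeR). ALG13 was at 11.03, 19.97 and 8.29 CPM in CALR knockdown replicates 1 to 3, against 15.6, 13.7 and 13.8 CPM in the controls, so its knockdown libraries lay on both sides of the controls (log2 fold change −0.13 ± 0.31). The ratio of the deposited FPKM values of ALG14 to ALG13, a comparison of levels per length, was 1.78, 1.44 and 4.14 in CALR knockdown replicates 1 to 3, against 0.769, 1.06 and 1.06 in the controls. The groups did not overlap, as they did not for ALG14 alone, and this ratio was not among those planned.

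ALG1 adds the first mannose, and ALG2 and ALG11 add the following mannoses on the cytosolic face. ALG1 was at 43.1, 45.2 and 54.6 CPM in CALR knockdown replicates 1 to 3, against 34.6, 32.9 and 31.4 CPM in the controls, higher in all 3 knockdown libraries (log2 fold change 0.53 ± 0.17, unadjusted p = 0.012, adjusted p = 0.223, edgeR). This count is uncertain, because 48.3% of the longest ALG1 transcript has copies of at least 95% identity in other genes and other genes overlap it, NAGPA-AS1 on the same strand over 22.2% of its exon bases and EEF2KMT and NAGPA on the other. EEF2KMT was at 15.97, 15.2 and 17.5 CPM in the knockdown libraries, against 11.4, 12.02 and 10.2 CPM in the controls, also without overlap (log2 fold change 0.53 ± 0.19). NAGPA had a log2 fold change of 0.64 ± 0.27 with overlapping groups, and the part of either neighbour in the ALG1 count was not tested. ALG2 (log2 fold change −0.07 ± 0.21) and ALG11 (−0.02 ± 0.22) overlapped between groups, and 39.7% of the exon bases of ALG11 are shared with UTP14C on the same strand.

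**Figure D2:**
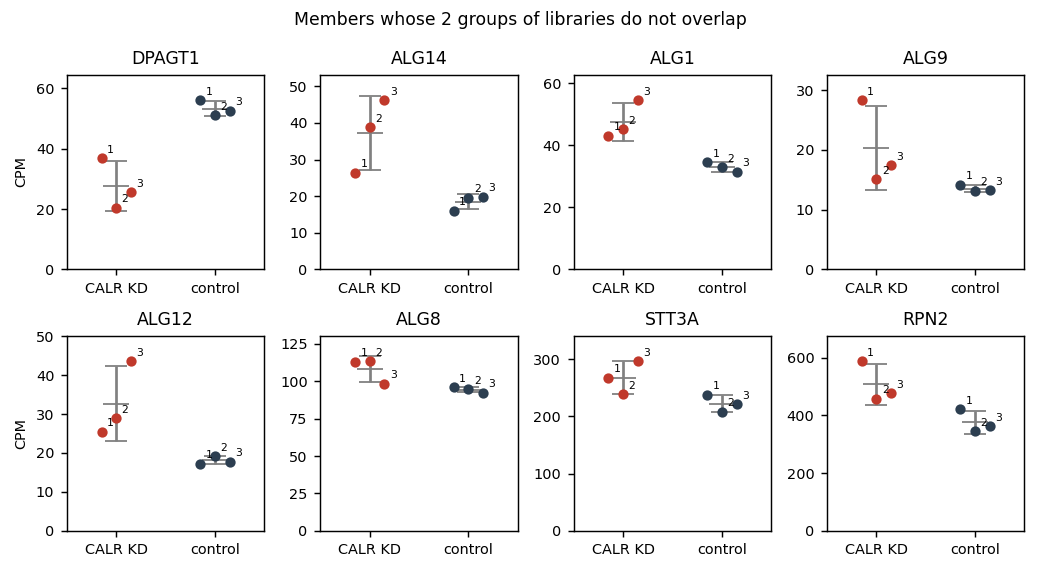
CPM (vertical axes, starting at 0) of the 8 members whose knockdown and control libraries did not overlap; points are libraries labelled by replicate number, grey bars the mean and SD of 3. DPAGT1 is lower in CALR knockdown and the other 7 are higher, with the gap narrow for ALG8 and STT3A.

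On the lumenal face ALG12 was furthest above the controls. ALG3, ALG9 and ALG12 are mannosyltransferases that use dolichol-phosphate mannose, and ALG6, ALG8 and ALG10 add the glucoses that complete the glycan. ALG12, on chromosome 22 at 49900229 to 49918458 (minus strand, ENSG00000182858.13), was at 25.5, 28.9 and 43.6 CPM in CALR knockdown replicates 1 to 3, against 17.2, 19.2 and 17.8 CPM in the controls. Its groups were fully apart, with replicate 3 again highest (log2 fold change 0.85 ± 0.23, unadjusted p = 0.00495, adjusted p = 0.200, edgeR). CRELD2, an ER stress-inducible gene, starts on the opposite strand. In GENCODE, CRELD2 and AL671710.1 together cover 42.1% of the exon bases of ALG12 on that strand, and the part of CRELD2 alone is not given here. AL671710.1 was not among the genes tested. CRELD2 was at 42.7, 28.1 and 62.9 CPM in the knockdown libraries, against 25.9, 24.5 and 22.3 CPM in the controls, likewise apart (log2 fold change 0.88 ± 0.28). Whether reads of CRELD2 or AL671710.1 enter the ALG12 count was not tested, since the strand setting of the counting is not given in the sources used here.

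The 250 bases before the RefSeq start of the 3 members with the smallest unadjusted p are shown, DPAGT1 lower and ALG14 and ALG12 higher in knockdown, because they differ in direction. Sequences are from RefSeq on GRCh38.p14, on the gene's strand, 5′ to 3′, with DPAGT1 at chr11:119101854-119102103, ALG14 at chr1:95072952-95073201 and ALG12 at chr22:49918439-49918688, all on the minus strand; the RefSeq start of DPAGT1 lies inside the GENCODE span given above. Capitals mark matches, on either strand, to CCAAT (reverse complement ATTGG), to ACGTG, and to the ER stress response element, which is CCAAT, 9 bases of any kind and CCACG.
DPAGT1: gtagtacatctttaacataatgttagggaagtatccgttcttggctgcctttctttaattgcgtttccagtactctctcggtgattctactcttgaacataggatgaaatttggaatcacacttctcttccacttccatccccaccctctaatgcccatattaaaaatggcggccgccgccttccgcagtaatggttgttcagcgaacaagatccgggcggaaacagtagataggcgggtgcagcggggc
ALG14: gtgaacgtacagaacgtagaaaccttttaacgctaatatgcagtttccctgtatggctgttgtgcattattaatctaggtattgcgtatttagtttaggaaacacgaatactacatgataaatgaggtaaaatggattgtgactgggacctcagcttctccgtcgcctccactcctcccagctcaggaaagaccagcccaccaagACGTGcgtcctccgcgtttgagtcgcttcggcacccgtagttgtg
ALG12: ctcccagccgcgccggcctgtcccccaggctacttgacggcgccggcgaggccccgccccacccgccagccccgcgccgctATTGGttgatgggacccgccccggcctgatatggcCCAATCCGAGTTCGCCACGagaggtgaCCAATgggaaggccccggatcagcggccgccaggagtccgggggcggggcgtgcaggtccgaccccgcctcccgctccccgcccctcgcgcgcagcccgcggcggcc
The ALG12 window held 1 full ER stress response element, starting 134 bases before the gene's start, and 3 CCAAT boxes, of which 1 belongs to that element. This element is known as the site through which ATF6 with NF-Y induces ER chaperone genes. It was found in 26 of 35116 promoter windows of the same length (0.074%), and in 1 of the 31 members with a window. The RefSeq starts of ALG12 and CRELD2 are 196 bases apart on opposite strands, so the element lies between them. A CCAAT box was in 17 of the 31 member windows (54.8%) and in 32.0% of all. The ALG14 window held 1 ACGTG, found in 14 of the 31 member windows (45.2%) and in 18.5% of all, and the DPAGT1 window held none of the searched letters. The octamer TGACGTGG, searched as well, was in 0 of the 31 member windows and 0.61% of all, and CACGTG, which overlaps ACGTG, in 4 member windows and 6.34% of all. Member shares count each gene once, whereas shares of all count windows and are not matched for kind of gene. Enrichment of a motif in the members was therefore not tested.

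ALG9 was at 28.4, 15.2 and 17.4 CPM in CALR knockdown replicates 1 to 3, against 14.2, 13.2 and 13.2 CPM in the controls. The groups did not overlap, but replicate 1 stood far above the other knockdown libraries, and the log2 fold change of 0.59 ± 0.26 (unadjusted p = 0.0482, adjusted p = 0.319, edgeR) was 0.27 without it. AP001781.2 shares 24.4% of the exon bases of ALG9 on the same strand. ALG8 was at 113, 113 and 98.3 CPM in CALR knockdown replicates 1 to 3, against 96.2, 94.7 and 92.5 CPM in the controls, a small gap with a log2 fold change of 0.20 ± 0.15 and an adjusted p of 0.517 from edgeR. Of the remaining lumenal members, ALG3 (0.12 ± 0.23, and −0.03 with library size alone) and ALG6 (−0.38 ± 0.28) overlapped between groups. ALG10 (−0.07 ± 0.24) did too, but its count is uncertain, because 99.9% of its longest transcript has a match of at least 95% identity in ALG10B. ALG10B has a row of its own in the count table, with overlapping groups and a log2 fold change of −0.51 ± 0.30.

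Genes of the dolichol carrier and of its sugar donors did not separate the groups: 0 of 7 were apart or at an unadjusted p under 0.05 in edgeR, and 5 had positive values. DPM1, DPM2 and DPM3 form dolichol-phosphate mannose synthase, whose catalytic subunit is DPM1. DPM1 was at 63.4, 81.7 and 60.8 CPM in CALR knockdown replicates 1 to 3, against 88.004, 81.6 and 82.997 CPM in the controls, so that replicates 1 and 3 were below the controls and replicate 2 was among them (log2 fold change −0.30 ± 0.17). DPM3, which tethers DPM1, was at 17.8, 13.04 and 29.8 CPM in CALR knockdown replicates 1 to 3, against 14.9, 14.5 and 13.1 CPM in the controls, with replicate 3 far above the rest and replicate 2 lowest (log2 fold change 0.51 ± 0.29). Without replicate 3 the DPM3 value was 0.14. DOLK, the dolichol kinase, had a log2 fold change of 0.26 ± 0.19, the dolichyl pyrophosphate phosphatase DOLPP1 0.33 ± 0.18, the donor-use factor MPDU1 0.28 ± 0.24 and the dolichol-phosphate glucose synthase ALG5 0.18 ± 0.20. DPM2 stood at −0.02 ± 0.26. Without knockdown replicate 3 DOLK was at 0.10, MPDU1 at −0.02 and ALG5 at 0.02.

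In the oligosaccharyltransferase, 8 of 10 subunits were on the positive side, the median log2 fold change was 0.26, and 1, RPN2, was at an unadjusted p under 0.05. The median difference of the 10 from the control mean was 0.17, 0.10 and 0.45 in knockdown replicates 1 to 3, against 0.02, 0.02 and −0.03 in the controls, so the group was highest in replicate 3. RPN1, RPN2, DDOST and DAD1 are core subunits shared by both OST complexes. RPN2 was at 587, 458 and 477 CPM in CALR knockdown replicates 1 to 3, against 421, 344 and 363 CPM in the controls, higher in all 3 (log2 fold change 0.43 ± 0.17, unadjusted p = 0.0311, adjusted p = 0.282, edgeR). For RPN1 the values were 410.3, 313 and 513 CPM in CALR knockdown replicates 1 to 3, against 307, 314 and 293 CPM in the controls, with replicate 2 among the controls (log2 fold change 0.44 ± 0.20, edgeR adjusted p = 0.330). Without knockdown replicate 3 RPN1 was at 0.27. DDOST, the anchor of the complex, was at 237 ± 70.3 CPM in knockdown and 171 ± 21.2 CPM in control libraries (SD, n = 3 each, log2 fold change 0.47 ± 0.23), and at 0.25 without knockdown replicate 3. It shares 15.7% of its exon bases with PINK1-AS on the same strand. PINK1-AS was at 67.6, 52.3 and 80.6 CPM in the knockdown libraries, against 51.7, 51.3 and 48.5 CPM in the controls. Its groups did not overlap (log2 fold change 0.40 ± 0.19), and the part of PINK1-AS in the DDOST count was not tested. DAD1 was at 395 ± 87.8 CPM in knockdown and 321 ± 41.5 CPM in control libraries (log2 fold change 0.30 ± 0.20, and 0.12 without knockdown replicate 3).

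OST exists with STT3A, the catalytic subunit that works on nascent chains at the translocon, or with STT3B, which also glycosylates sites that were skipped. STT3A was at 267, 239 and 296 CPM in CALR knockdown replicates 1 to 3, against 238, 208 and 221 CPM in the controls, apart by a narrow margin (log2 fold change 0.27 ± 0.15, edgeR adjusted p = 0.421). STT3B was at 203, 333 and 287 CPM in CALR knockdown replicates 1 to 3, against 307, 266 and 276 CPM in the controls, below the controls in replicate 1 and above them in replicate 2 (log2 fold change −0.04 ± 0.20). Per length, the ratio of STT3A to STT3B FPKM values was 1.20, 0.656 and 0.943 in CALR knockdown replicates 1 to 3, against 0.707, 0.716 and 0.733 in the controls. The controls were nearly alike in this ratio, and the knockdown libraries lay on both sides of them. OSTC and KRTCAP2 belong to the STT3A complex. Their log2 fold changes were 0.25 ± 0.18 and 0.15 ± 0.25, or 0.12 and −0.12 without knockdown replicate 3, with that of KRTCAP2 turning to −0.01 with library size alone and to −0.02 on the FPKM scales.

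MAGT1 and TUSC3 are alternative oxidoreductase subunits of the STT3B complex. MAGT1 was at 64.4, 77.9 and 77.5 CPM in CALR knockdown replicates 1 to 3, against 76.4, 73.4 and 76.1 CPM in the controls, with replicate 1 lowest (log2 fold change −0.04 ± 0.15). TUSC3 was at 87.1, 86.2 and 75.3 CPM in CALR knockdown replicates 1 to 3, against 73.4, 79.97 and 73.6 CPM in the controls with overlapping groups (log2 fold change 0.13 ± 0.15). The ratio of MAGT1 to TUSC3 FPKM values was 0.645, 0.788 and 0.897 in CALR knockdown replicates 1 to 3, against 0.908, 0.800 and 0.901 in the controls, and the groups overlapped at replicate 3. In FPKM, DAD1 was the most abundant of the 36 members, at 481 ± 77.2 FPKM in knockdown and 430.1 ± 64.7 FPKM in control libraries, and RPN2 came next in both groups. OSTC, KRTCAP2, RPN1 and DDOST followed with control means of 137, 120.2, 113 and 78.7 FPKM, and the control libraries of KRTCAP2 overlapped in range with those of OSTC and of RPN1. ALG13, ALG14 and ALG10 were lowest in the controls, at 2.02, 1.93 and 1.67 FPKM.

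**Figure D3:**
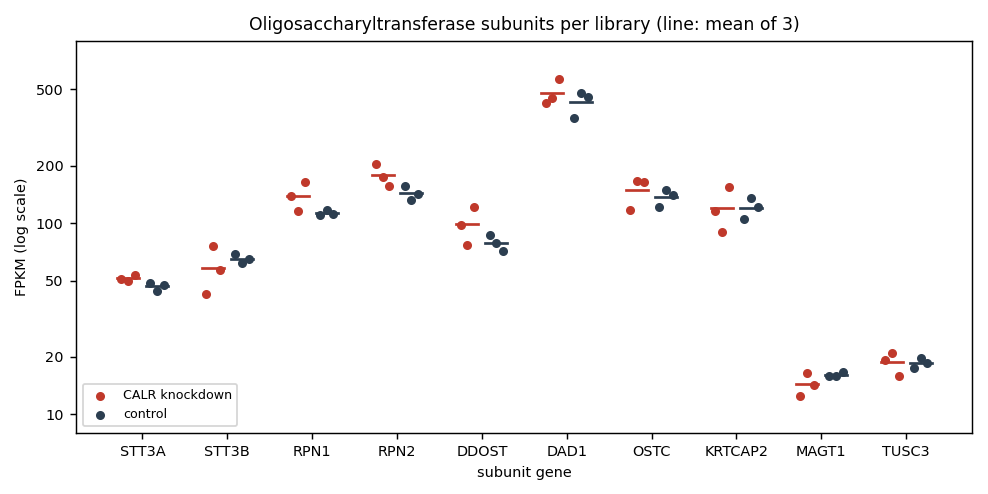
Deposited FPKM (vertical axis, log scale) of the 10 oligosaccharyltransferase subunits in each library, CALR knockdown (red) left of control (dark); lines are means of 3. STT3A and RPN2 are shifted upward in knockdown, STT3B scatters widely there, and MAGT1 and TUSC3 are the least abundant subunits.

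All 7 genes of mannose trimming and Golgi processing had a positive log2 fold change, between 0.06 and 0.48, but 0 of 7 were apart or at an unadjusted p under 0.05 in edgeR. MAN1B1, the ER mannosidase linked to disposal of misfolded glycoproteins, was at 131, 117 and 206 CPM in CALR knockdown replicates 1 to 3, against 132, 127 and 119.6 CPM in the controls, so only replicate 3 stood above the controls (log2 fold change 0.27 ± 0.22, and −0.003 without replicate 3). MGAT1, which opens the branch of complex glycans, was at 127, 96.1 and 203 CPM in CALR knockdown replicates 1 to 3, against 89.8, 113 and 108 CPM in the controls (log2 fold change 0.46 ± 0.26, and 0.12 without replicate 3). Replicate 3 was highest for both. MAN2A1, the Golgi mannosidase after MGAT1, was at 21.6, 18.8 and 11.8 CPM in CALR knockdown replicates 1 to 3, against 15.1, 9.58 and 12.9 CPM in the controls, where replicate 3 was lowest of the knockdown libraries (log2 fold change 0.48 ± 0.28, and 0.29 without replicate 1). FUT8, the core fucosyltransferase, was at 118, 140.4 and 89.04 CPM in CALR knockdown replicates 1 to 3, against 98.7, 80.1 and 86.1 CPM in the controls (log2 fold change 0.39 ± 0.20, and 0.23 without replicate 2), with replicate 3 among the controls. FUT8-AS1, an antisense transcript over 12.3% of its exon bases, was at 1.23, 1.47 and 1.05 CPM in the knockdown libraries, against 0.555, 0.467 and 0.665 CPM in the controls (log2 fold change 1.14 ± 0.34). The Golgi mannosidases MAN1A1 (0.19 ± 0.21) and MAN1A2 (0.06 ± 0.29) and the second-branch enzyme MGAT2 (0.19 ± 0.15) overlapped between groups. MAN1A2 was negative with library size alone (−0.04), limma-voom (−0.02) and on the FPKM scales (−0.11 and −0.15). AL139099.1 covers 91.9% of the exon bases of MGAT2 on the other strand, so that count is uncertain.

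**Figure D4:**
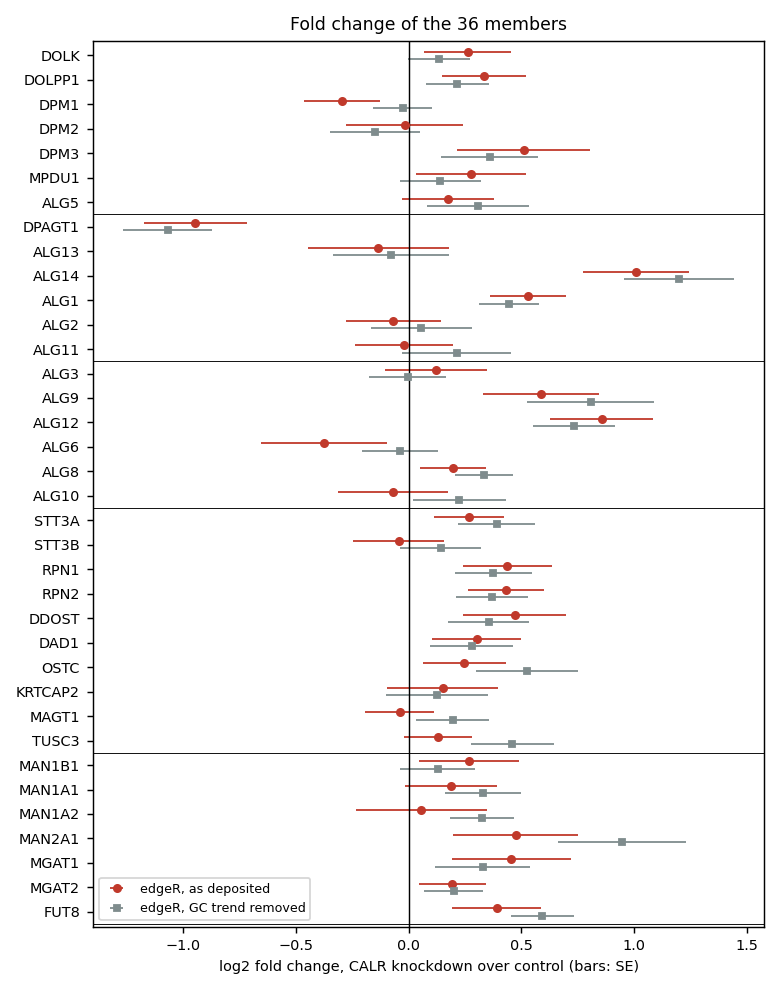
Log2 fold change of CALR knockdown over control (horizontal axis, bars SE) for the 36 members, grouped by role, from edgeR as deposited (red circles) and after each library's GC trend was removed (grey squares). DPAGT1 stays furthest left and ALG14 furthest right in both fits, and MAN2A1, OSTC and TUSC3 are among those that move to the right after the correction.

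The differences between knockdown libraries followed GC content in part. In replicate 3 the members of high GC content, DPAGT1 apart, lay above the controls and those of low GC content mostly below or near them. Replicate 2 showed the other slope. The 12 members with a GC content of at most 41.97% had a median log2 fold change of 0.02, where all 4074 such genes had −0.23, and the 5 with at least 55.98% had 0.27, where all 4074 had 0.17. After the GC trend was removed these medians were 0.27 and 0.04, and 0.13 and 0.05. In that fit 12 members were higher at an unadjusted p under 0.05 (10.7% of all genes were) and 1 was lower (7.56% of all genes were), and 0 members passed the adjusted threshold of edgeR. DPAGT1 was at −1.07 ± 0.20, ALG14 at 1.20 ± 0.24, ALG12 at 0.73 ± 0.18 and ALG1 at 0.44 ± 0.13. MAN2A1 at 0.95 ± 0.28, FUT8 at 0.59 ± 0.14, OSTC at 0.52 ± 0.22 and TUSC3 at 0.46 ± 0.18 were over 1.5 times their uncorrected values. Other members came nearer to 0: DPM1 was at −0.03 and ALG6 at −0.04 after the correction, against −0.30 and −0.38 before it, and DOLK, MPDU1 and MAN1B1 were at 0.13, 0.14 and 0.13, against 0.26, 0.28 and 0.27.

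**Figure D5:**
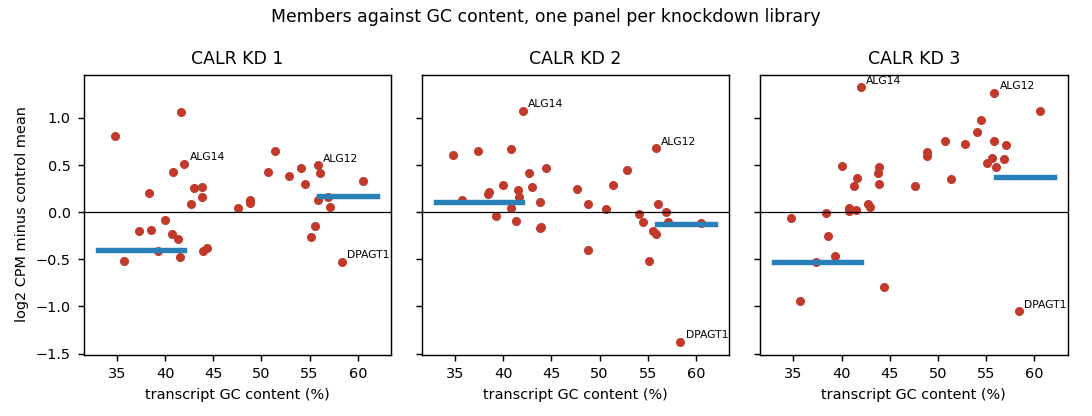
Each member (red points) by transcript GC content in % (horizontal axis) and its difference from the control mean in log2 CPM (vertical axis), in 1 panel per CALR knockdown library; blue bars are medians of all tested genes with a GC content of at most 41.97% and of at least 55.98%. The points rise with GC in replicate 3 and fall in replicate 2, while ALG14 and ALG12 are above 0 and DPAGT1 is below 0 in every panel.

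The pathway holds other genes beside these 36, and 45 of them were listed for comparison, of which 44 were tested and MGAT3 was not. Their median log2 fold change was 0.15, and 26 were positive. At an unadjusted p under 0.05, edgeR gave 8 higher and 4 lower (27.3%, against 15.5% of all genes), and 0 passed the adjusted threshold. The groups did not overlap for 5 on the higher and 4 on the lower side (20.5%, against 22.5% of all genes). The list was made with earlier results of these data known, so the first share is no independent result about it. Among 10 genes that supply the hexosamine and GDP-mannose donors, 2 were higher. GFPT2, the isoform of the rate-limiting enzyme of UDP-GlcNAc synthesis with the smallest p of the list, was at 183, 142 and 174 CPM in knockdown libraries, against 58.3, 65.8 and 69.7 CPM in the controls (log2 fold change 1.36 ± 0.17, edgeR adjusted p = 0.115). GMPPB, which makes GDP-mannose, was at 0.62 ± 0.20, also apart. UDP-GlcNAc is the substrate of DPAGT1 and of ALG13 with ALG14, and the isoform GFPT1 (−0.23 ± 0.23) and the next enzymes GNPNAT1 (−0.21 ± 0.16), PGM3 (−0.28 ± 0.18) and UAP1 (−0.31 ± 0.15) had negative values.

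Of the other OST subunits, OST4 was higher (0.62 ± 0.23) and TMEM258 was at 0.41 ± 0.24. In 11 genes of glucose trimming and quality control, the glucosidase subunit GANAB was higher (0.61 ± 0.22) and EDEM3, which promotes disposal of misfolded glycoproteins, was lower in all 3 libraries (−0.80 ± 0.29). Among 12 tested Golgi branching and capping genes 3 were higher and 2 lower. The branching enzymes MGAT4B and MGAT4A stood on opposite sides of the controls, but MGAT4A was near the floor of the test. MGAT4B was at 497 ± 102 CPM in knockdown and 330.5 ± 31.7 CPM in control libraries (log2 fold change 0.59 ± 0.19). MGAT4A was at 0.593 ± 0.423 CPM in knockdown and 1.91 ± 0.0994 CPM in control libraries (−1.67 ± 0.52). Its counts were 6, 41 and 22 in the knockdown libraries, against 76, 66 and 83 in the controls. The sialyltransferase ST3GAL4 (0.78 ± 0.17) and the galactosyltransferase B4GALT3 (0.43 ± 0.19) were higher, and MAN1C1 was lower (−1.49 ± 0.63) at means of 0.224 CPM in knockdown and 0.631 CPM in control libraries, near the floor of the test. SLC35A1, the CMP-sialic acid transporter, was at 18.9, 15.2 and 14.1 CPM in knockdown libraries, against 27.3, 29.4 and 31.9 CPM in the controls, lower in all 3 (log2 fold change −0.88 ± 0.19, edgeR adjusted p = 0.159). Higher and lower in these sentences refer to an unadjusted p under 0.05 from edgeR. Of the genes so named, OST4, GANAB, B4GALT3 and MAN1C1 had overlapping groups. Bulk RNA cannot tell a difference in every cell from one in a part of the cells.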

How the data were processed

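RNA of 3 CALR knockdown and 3 control libraries was compared. The deposited count table gives whole reads per gene and the deposited FPKM table values rounded by the authors to 2 decimals; both hold 1 column per library. The submitters' processing notes name TopHat2, GRCh38 and FastQC 0.9.5; which program counted the reads, with which annotation and on which strand, is not given in the sources used here. Coordinates, exon overlaps and GC content (of each gene's longest transcript) are from GENCODE 29 on GRCh38, matched without version for 30871 of 31582 identifiers. Promoter windows are from RefSeq (GRCh38.p14) and matched 31 members; ALG10, MAN1A2, RPN1, STT3B and TUSC3 had none.

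Genes were kept with filterByExpr, scaled with TMM factors and tested with edgeR 4.0.16 (R 4.3.3, quasi-likelihood F-test, no covariate), adjusting by Benjamini-Hochberg over all 16394 genes. CPM uses TMM-scaled library sizes, log2 CPM a prior count of 2, and an SE is the log2 fold change over the square root of F. No result of a check of the test on simulated data is given here. Spread between libraries, rather than counting error, limited the precision: replicate pairs differed by more than sampling noise (chi-square per gene 105 to 199 in knockdown, 11.8 to 48.1 in control pairs). Alternatives were DESeq2 1.42.0 and its size factors, library size alone, limma-voom and limma 3.58.1 on log2(FPKM + 1 or + 0.1) for genes at an FPKM of at least 1 in 3 libraries or without that filter, no count filter, every one of 6 libraries at 1 CPM or more, each library left out, the replicate number as a block, and removal of each library's lowess trend with GC. Members with an unadjusted p under 0.05 or groups apart, and DPAGT1, STT3A, STT3B, MAGT1, TUSC3, MAN1B1 and MGAT1, were named with values in every library; DPM1, DPM3, ALG13, RPN1, MAN2A1 and FUT8 were given likewise, chosen after their values were seen, and other members were named by role. Members and lists were chosen with earlier results of these data known. One gene of the wider pathway list is not reported here by name.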

Additional observations from a re-analysis of the deposited data

How the results depend on the processing

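The median log2 fold change of the 36 members kept its sign under all 18 alternatives, at 0.12 to 0.30 with 1 library left out and 0.08 to 0.29 otherwise. The count of all genes past the adjusted threshold, 0 in edgeR, was 530 with DESeq2, 988 without the low-count filter, 4 after the GC correction, 13 after the GC correction with the replicate block, 5 in limma on log2(FPKM + 1) without a filter, and 0 to 2604 with 1 library left out. Members past that threshold were 3 of 36 with DESeq2 (3.23% of all genes were) and 3 of 36 without the filter (3.13% of all genes were). Each time these were ALG14, ALG12 and DPAGT1. With 1 library left out the count was 0 to 7 of 36 members (0 to 15.5% of all genes). The 7 came without knockdown replicate 2 and were ALG14, ALG12, ALG1, DDOST and RPN1 (higher) with ALG6 and DPAGT1 (lower). Members at an unadjusted p under 0.05 were 10 without the filter (27.8%, against 12.3% of all genes), 13 after the GC correction (36.1%, against 18.2%) and 3 to 17 with 1 library left out (8.33 to 47.2%, against 7.23 to 35.6%). The cause of these shifts was not tested. DPAGT1, ALG14 and ALG12 kept both direction and an unadjusted p under 0.05 in the main test and all 18 alternatives, with adjusted p-values of up to 0.56, 0.55 and 0.62. The replicate block left 0 members past the threshold and 5 at an unadjusted p under 0.05 (13.9%, against 13.5% of all genes). Deviations of same-numbered libraries from their group means correlated at 0.20, −0.12 and −0.22, and those of differently numbered libraries at −0.20 to 0.36. Deviations from a mean of 3 libraries constrain one another, so these values cannot decide whether the numbers pair the libraries.

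Of 648 member values under the alternatives, 601 kept their sign, and 24 members never turned. The 12 that turned had main values of at most 0.28 in size, all short of the adjusted threshold. With library size alone the turned values were ALG3 −0.033, KRTCAP2 −0.013, MAN1A2 −0.039. With limma-voom the turned value was MAN1A2 −0.023. Without the low-count filter the turned value was DPM2 0.0017. With the replicate block the turned value was MAN1A2 −0.029. After the GC correction the turned values were ALG2 0.055, ALG11 0.21, ALG3 −0.0047, ALG10 0.22, STT3B 0.14, MAGT1 0.20. After the GC correction with the replicate block the turned values were ALG2 0.013, ALG11 0.17, ALG3 −0.027, ALG10 0.23, STT3B 0.12, MAGT1 0.18. In limma on log2(FPKM + 1) the turned values were ALG3 −0.044, KRTCAP2 −0.024, MAN1A2 −0.11. In limma on log2(FPKM + 0.1) the turned values were ALG3 −0.046, KRTCAP2 −0.025, MAN1A2 −0.15. In limma on log2(FPKM + 1) without a filter the turned values were ALG3 −0.044, KRTCAP2 −0.024, MAN1A2 −0.11. With 1 library left out the ranges were DPM2 −0.37 to 0.18, MPDU1 −0.021 to 0.48, ALG13 −0.57 to 0.12, ALG2 −0.27 to 0.086, ALG11 −0.17 to 0.10, ALG3 −0.16 to 0.26, ALG10 −0.22 to 0.048, STT3B −0.20 to 0.13, KRTCAP2 −0.12 to 0.37, MAGT1 −0.082 to 0.048, MAN1B1 −0.0034 to 0.42, MAN1A2 −0.36 to 0.29. ALG10 had the fewest reads of the members, 167 to 253 per library, which makes its counting error the largest among them.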

Other observations

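Dolichol-phosphate mannose, made by DPM1 with DPM2 and DPM3, also serves the assembly of GPI anchors and the O- and C-mannosylation of proteins, and genes of both pathways were listed after the data had been seen. Of 20 GPI anchor genes, 11 were on the positive and 9 on the negative side, the median log2 fold change was 0.04, and at an unadjusted p under 0.05 edgeR placed 3 above the controls and 0 below (15%, against 15.5% of all genes). PIGO, which adds ethanolamine phosphate to the anchor, was at 22.9 ± 2.19 CPM in knockdown and 13.7 ± 2.01 CPM in control libraries (SD, n = 3 each), a log2 fold change of 0.74 ± 0.20. PIGS and GPAA1 are subunits of the GPI transamidase. PIGS was at 54.4 ± 11.1 CPM in knockdown and 37.9 ± 1.999 CPM in control libraries (SD, n = 3 each), a log2 fold change of 0.52 ± 0.19, and GPAA1 at 79.2 ± 22.1 CPM in knockdown and 42.3 ± 10.8 CPM in control libraries (SD, n = 3 each), a log2 fold change of 0.90 ± 0.26. The groups did not overlap for PIGO and PIGS and overlapped for GPAA1.

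Of 12 O- and C-mannosylation genes, 6 were positive and 6 negative, with a median of 0.04, and 2 were higher (16.7%, against 15.5% of all genes). POMGNT1, which extends O-mannose glycans in the Golgi, was at 97.8 ± 31.5 CPM in knockdown and 54.3 ± 4.16 CPM in control libraries (SD, n = 3 each), a log2 fold change of 0.85 ± 0.24, with all 3 knockdown libraries above all 3 controls. POMT2, a subunit of the O-mannosyltransferase, was at 71.2 ± 8.05 CPM in knockdown and 53.9 ± 6.20 CPM in control libraries (SD, n = 3 each), a log2 fold change of 0.40 ± 0.17, also without overlap. In edgeR, 0 genes of either list passed the adjusted threshold, and the smallest adjusted p was 0.196 for GPI anchor genes and 0.205 for mannosylation genes.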
